A study of Mus musculus with 2 samples.

Results

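The ephrin-B ligands Efnb1, Efnb2 and Efnb3 and the EphB receptors Ephb1, Ephb2, Ephb3, Ephb4 and Ephb6 were followed on 2 expression arrays of embryonic mouse carotid arteries. All probe sets that the platform annotation gives to 1 of these genes were taken, which found 12 probe sets for 7 of the 8 genes, out of 18193 genes named on the array. Ephb2 had no probe set listed and was not analysed here. Efnb2, the ligand known from arterial endothelium, and Ephb4, the receptor known from venous endothelium, are treated apart from the others.

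One array held RNA from internal carotid arteries and the other RNA from external carotid arteries, microdissected from untreated ICR embryos at E13.5. ICR is an outbred mouse stock, and no genotype or treatment differed between the vessels per the labels. The design text gives 22 embryos whose vessel segments were pooled and states that no replicate was made, so each vessel is 1 array and no p-value can be given. The labels do not say whether each embryo gave both vessels. The series concerns endothelin and the routing of axons that leave the superior cervical ganglion and grow along these arteries, so the comparison asks what differs between the 2 branches.

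Ephrin-B proteins are membrane-spanning ligands, and the EphB receptors are receptor tyrosine kinases, so signalling needs contact between cells. The receptor-bearing cell receives a forward signal, and the ligand-bearing cell a reverse signal through the ligand's cytoplasmic tail. The family is known for setting boundaries, for steering axons and neural crest cells, and, through Efnb2 and Ephb4, for keeping arteries and veins apart in the embryo.

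Values are signal intensities as deposited, in arbitrary units. Each array's median over its non-control probe sets, 47.5 for the internal and 52.3 for the external carotid pool, served as a floor under which a signal was not read as a level. A log2 ratio is external over internal carotid signal, so that a positive value is a higher signal in the external carotid pool. The brightest probe set stood for each gene, and signals were not compared between genes, since each probe set has its own response. With no replicate arrays, the only spread at hand was that between probe sets of one gene, an SD of 0.34 on the log2 scale (1.26-fold) pooled over 4315 genes. It measures disagreement of probes on the same 2 arrays and leaves out differences between embryos, dissections and amplifications. For a difference between the ratios of 2 genes the same spread comes to 0.48.

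None of the 7 measured genes was 2-fold different between the pools, where 3.58% of the 12408 genes with a ratio or bound were. The largest ratio was that of Ephb6, 0.64 on the log2 scale or 1.56-fold with the external carotid pool higher, and the lowest that of Efnb3, -0.35 or 1.27-fold with the internal higher. The count past 1.5-fold was 1 of 7, Ephb6, against 14.6% of all genes. Ratios of 4 of the 7 genes (Ephb6, Efnb2, Ephb1 and Efnb3) lay beyond the probe set SD of 0.34, against 36.2% of all genes. The count was 3 of 7 after centring, which left out Ephb1, against 37.3% of all genes at that setting. It was 3 of 7 with the pseudocount, which left out Efnb3 at -0.29, against 26.0%. At a 75th percentile floor, which gave Ephb6 no value, it was 3 of 6, against 28.2%. Efnb2 has a bound of 0.27 with the median over probe sets. The median log2 ratio over the 7 genes was 0.11, beside 0.055 over all 12408 genes, and 5 of the 7 were above 0, beside 56.1% of all genes. After centring both arrays on their medians the family's median was -0.030, beside -0.082 over all genes with a value.

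**Figure D1:**
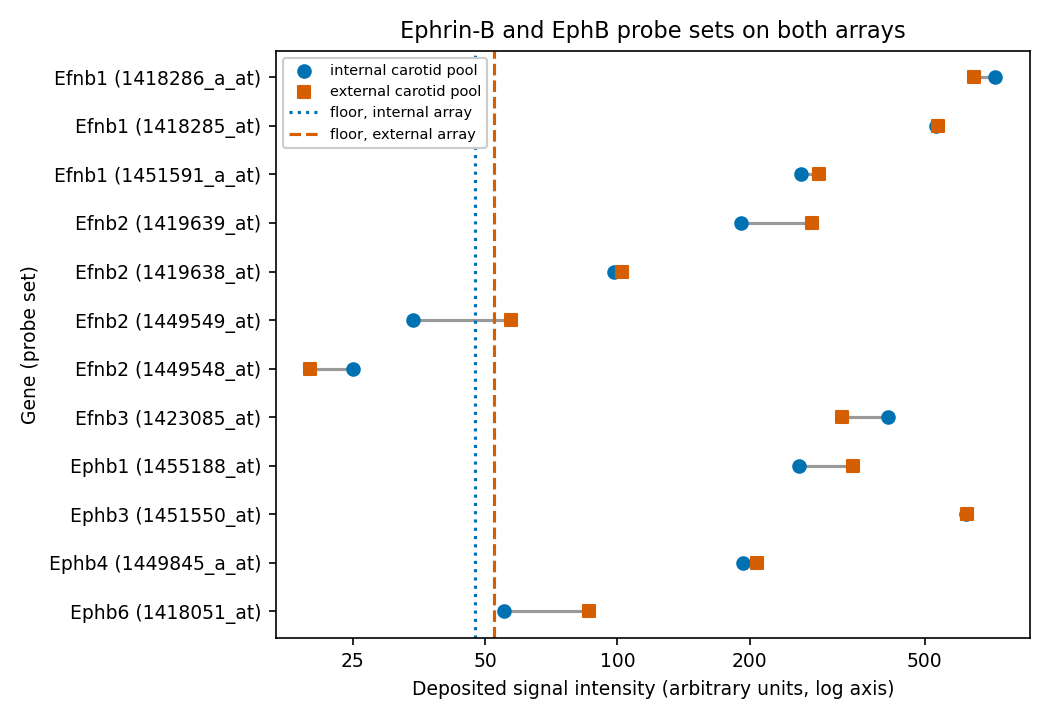
Deposited signal intensity (arbitrary units, log axis) of each of the 12 ephrin-B and EphB probe sets on the internal carotid array (circles) and the external carotid array (squares), 1 array each, with vertical lines at the floors of 47.5 and 52.3. The widest separations above both floors are those of Ephb6 (55.1 and 86.1) and the brightest Efnb2 probe set (191.1 and 277.7), and 1 Efnb2 probe set lies under both floors.

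By the brightest probe set of each ligand, Efnb2 was the one with a higher signal in the external carotid pool. Efnb2 is made by arterial endothelium and by smooth muscle of the vessel wall. Its brightest probe set, 1419639_at, read 191.1 in the internal and 277.7 in the external carotid pool, 1.45-fold higher in the latter. That log2 ratio of 0.54 is 1.59 times the probe set SD, and 10.8% of all genes had a ratio as high or higher.

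The other Efnb2 probe sets did not repeat that size. The second, 1419638_at, read 98.3 and 102.5, a log2 ratio of 0.060. The third, 1449549_at, was under the floor in the internal carotid pool at 34.2 and just above it in the external at 57.3, which gives a lower bound of 0.27 on the log2 scale. The fourth, 1449548_at, was under both floors at 25.1 and 20.0, so it has no ratio. Both probe sets measured on both arrays had a log2 ratio above 0, the second by little, beside 56.1% of all genes above 0. The gap of 0.48 between the 2 probe sets measured on both arrays equals the spread of a difference. The median over the probe sets with a value is that bound, so it is at least 0.27 and at most the 0.54 of the brightest, and cannot be placed on either side of the probe set SD. All 4 Efnb2 probe sets were designed from a single sequence record per the platform annotation, so they are repeat readings of one transcript record and not independent samples.

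Efnb1, an X-linked ligand of craniofacial mesenchyme and neural crest derivatives, was bright and near equal in the pools. Its 3 probe sets read 724.5, 529.2 and 261.8 in the internal carotid pool and, in the same order, 648.6, 535.1 and 288.0 in the external. Their log2 ratios were -0.16, 0.016 and 0.14, so the sign depended on the probe set, and the median over probe sets was 0.016. The 3 ratios had an SD of 0.15, under the pooled probe set SD of 0.34.

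Efnb3, a ligand best known from the midline of the developing nervous system, was lower in the external carotid pool. Its 1 probe set read 411.7 in the internal and 323.7 in the external carotid pool, a log2 ratio of -0.35. This is 1.03 times the probe set SD in size, and 14.0% of all genes had a ratio as low or lower. Floor and probe set alternatives could not change this value, since its 1 probe set lay above every floor tried. Under the scaling alternatives and the pseudocount its sign stayed negative, from -0.49 after centring to -0.29 with a pseudocount at the floor. The 3 ligands thus had ratios on both sides of 0, with a median of -0.16.

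Of the receptors, Ephb4 was near equal between the pools. Ephb4 is the receptor through which venous endothelium meets Efnb2 on arterial cells. Its 1 probe set, 1449845_a_at, read 193.0 in the internal and 208.2 in the external carotid pool, a log2 ratio of 0.11 that is under the probe set SD and turned to -0.030 after centring. Of all genes, 44.0% had a ratio as high or higher.

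Ephb1, a receptor of axons and of endothelial cells, read 259.4 in the internal and 344.4 in the external carotid pool. It was 1.33-fold higher in the external, a log2 ratio of 0.41, which 17.2% of all genes reached or passed. Ephb3, a receptor of endothelial cells and of arch mesenchyme, had signals of 619.5 and 623.8, a log2 ratio of 0.010 that turned to -0.13 after centring. Each was read by 1 probe set.

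Ephb6 is the member whose kinase domain is known to be inactive. It was the dimmest of the represented genes relative to the floors, with 55.1 in the internal and 86.1 in the external carotid pool, or 1.16 and 1.65 times the floor. Its log2 ratio of 0.64 was reached or passed by 7.12% of all genes. With the floor at the 75th percentile no Ephb6 value remained, and with a pseudocount at the floor its log2 ratio was 0.43. The 4 measured receptors had a median log2 ratio of 0.26, and all 4 were above 0, though Ephb3 and Ephb4 were below 0 after centring.

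In order of log2 ratio the genes were Ephb6, Efnb2, Ephb1, Ephb4, Ephb3, Efnb1 and Efnb3. Neighbours in this order differed by 0.099 to 0.30, in every case less than the 0.48 spread of a difference, so no 2 neighbours can be told apart. Across the whole order, the ratio of Efnb3 minus that of Ephb6 was -0.99. These genes were picked as the 2 ends of the order, and the 0.48 spread is for a pair fixed beforehand. It therefore cannot say whether the ends differ.

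Ratios on these arrays drifted with brightness, so each member was also set beside probe sets of like signal. Probe sets measured on both arrays were cut into 10 equal groups by mean log2 signal, and the group medians of the log2 ratio went from 0.17 in the dimmest to -0.17 in the brightest. Ephb6 lay in the dimmest group, where the 90th percentile was 0.57, and stood 0.47 above that group's median. The brightest Efnb2 probe set stood 0.47 above its group's median and just over the 90th percentile of 0.51, whereas Ephb4, in the same group, stood 0.039 above it. Ephb1 stood 0.33 above and Efnb3 0.36 below the medians of their groups, both inside the central 80% of ratios. Of the 7 represented genes, Ephb6 and, by its brightest probe set, Efnb2 were thus the ones outside that central range for their brightness. By construction about 80% of all probe sets lie inside it. The second Efnb2 probe set, at -0.049 from its group's median, also lay inside it.

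**Figure D2:**
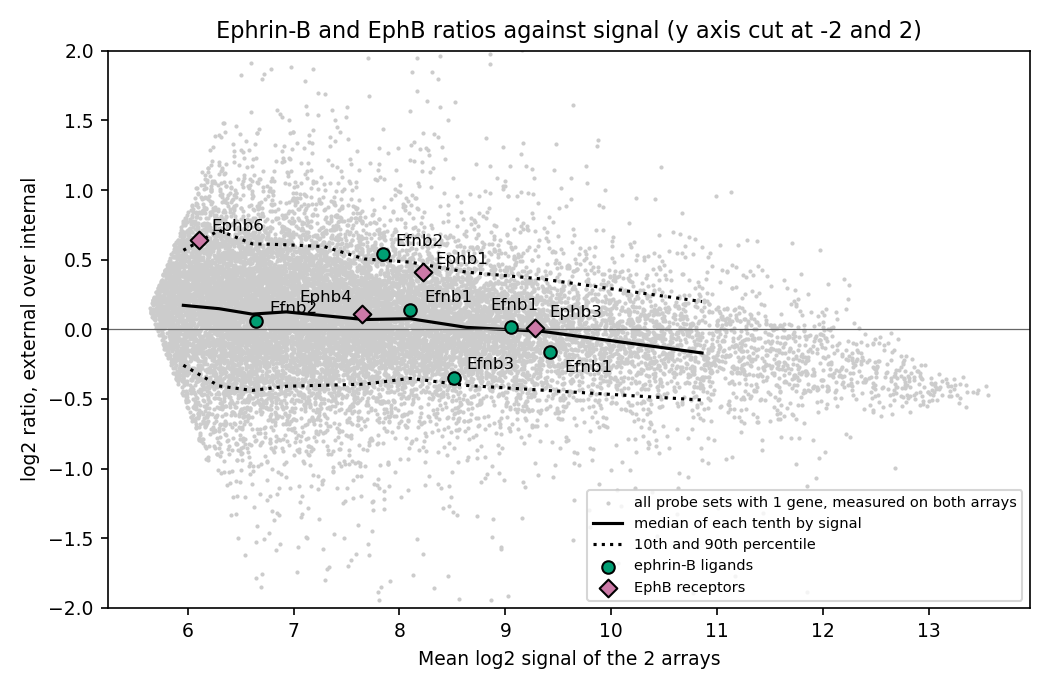
Log2 ratio, external over internal carotid signal, against the mean log2 signal of the 2 arrays for all probe sets measured on both (grey), with the median (solid line) and the 10th and 90th percentiles (dotted lines) of 10 equal groups by signal. The 10 ephrin-B (circles) and EphB (diamonds) probe sets measured on both arrays lie between -0.35 and 0.64, with Ephb6 and the brightest Efnb2 probe set just above the upper dotted line.

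The arterial ligand and the venous receptor were then compared by their change between the vessels. The log2 ratio of Efnb2 exceeded that of Ephb4 by 0.43, which is less than the 0.48 spread of a difference. The difference ranged from 0.35 to 0.44 over the scaling, floor and pseudocount alternatives. With the median over probe sets it was at least 0.16, a bound. With the second Efnb2 probe set, measured on both arrays, in place of the brightest it was -0.049.

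Known arterial and venous genes give a scale for that pair. Arterial endothelial markers other than Efnb2 had a median log2 ratio of 0.47, with 12 of 14 measured above 0 and none past 2-fold. By its brightest probe set Efnb2 sat inside that list, with 6 of the 14 genes above it and 8 below. By its second probe set, at 0.060, Efnb2 lay below the list's median. The top of the list held Notch4, an endothelial Notch receptor, at 0.99 and Hey2, a Notch target that promotes arterial identity, at 0.94. Its lowest members were Nrp1, a receptor for VEGF and semaphorins, at -0.46 and Unc5b, a netrin receptor, at -0.085. Venous and lymphatic markers other than Ephb4 had a median of -0.31, with 6 of 7 measured below 0. The lowest were Nr2f2, a regulator of venous identity, at -0.65 and Pdpn, a lymphatic glycoprotein, at -0.59. Ephb4, at 0.11, had 6 of these 7 genes below it and 1 above. All 7 were below the brightest Efnb2 probe set, while Vwf, at 0.18, was above the second. The arterial median stayed between 0.33 and 0.50 under the alternatives, while the venous median was -0.063 with the median over probe sets. The venous readings were split by probe set, since Nrp2, at -0.31 by its brightest, was at 0.31 and 0.34 by other probe sets, Aplnr at -0.32 and 0.34, and Flt4 at -0.30 and 0.17. Nr2f2 was below 0 at all 5 probe sets measured on both arrays. Arterial readings also varied by probe set. Nrp1 was at 0.13, 0.14 and -0.98 by its other probe sets. Notch4 was at 0.43 and at a bound of 0.45 by others, the same sign at a smaller size. The arterial gene Sox17 was at 0.54 and 0.63.

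The genes of the 109 cell type markers measured on both arrays with the ratio nearest to that of Efnb2 were Sox17, Krt19 and Hey1. Sox17, an arterial transcription factor, read 915.1 and 1326.3, and the epithelial keratin gene Krt19 51.2 and 74.2, near the floors. Both log2 ratios lay within 0.0040 of that of the brightest Efnb2 probe set. The Notch target Hey1 read 142.4 and 210.6. The second Efnb2 probe set, at 0.060, lay below each of these genes, and no search was made from it. Nearest to Ephb4 were Jag1, a Notch ligand of arteries, at 0.11, Dcx, a microtubule protein of young neurons, at 0.13, and Mrc1, a macrophage receptor, at 0.089. Likeness here is the absolute difference of 1 ratio over 2 arrays, which many genes of unlike origin share.

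Dissected segments hold several cell types, and for a bulk signal fewer cells of a type and less RNA per cell cannot be told apart. The labelled tissue was checked against its markers. Of 12 general endothelial markers 11 had a ratio or bound, with a median log2 ratio of 0.24, 8 above 0 and 1, Cd34, past 2-fold. The summed signal of that list was 4734 in the internal and 5575 in the external carotid pool. The junction gene Cdh5 was at 0.58, while Pecam1 was under both floors at 11.2 and 48.6, as was the arterial connexin gene Gja5, named after its values were seen, at 20.3 and 5.1. Efnb2 exceeded the endothelial median by 0.30 and Ephb4 was 0.13 below it, both under the probe set SD. Smooth muscle markers were all 12 measured, with 7 above 0 and 5 below, and a median of 0.17. Under the alternatives that median ran from -0.064 at a 75th percentile floor to 0.31 without probe sets open to cross-hybridisation. The highest was Myocd at 0.64, with a bound of 0.14 at its other probe set. The lowest was Cspg4 at -0.73, with -0.06 at its other probe set. The summed signal of the list was 25170 and 21990, a sum that the brightest genes weigh most. Among these Acta2, the smooth muscle actin gene, read 9481.8 and 6952.3, a log2 ratio of -0.45.

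Medians of the neuronal, sympathetic and skeletal muscle lists were farther from 0 than the ratio of any ephrin-B or EphB gene. General neuronal markers had a median log2 ratio of 1.57, and 11 of 13 measured genes passed 2-fold toward the external carotid pool, as did 2.10% of all genes. Tubb3, a neuronal tubulin gene, was at 1.57 and Stmn2, a growth cone protein gene, at 1.90. The summed signal of the list was 2539 in the internal and 9905 in the external carotid pool. Sympathetic neuron markers had a median of 2.27 with 7 of 8 past 2-fold, and summed signals of 1871 and 6991. For Schwann cell and neural crest markers the median was 0.63, with 3 of 7 past 2-fold, and summed signals of 2649 and 4180. Skeletal muscle markers ran the other way, with all 12 past 2-fold toward the internal carotid pool, as were 1.47% of all genes, a median of -2.21 and summed signals of 23720 and 5164. Under both floors lay 1 general neuronal, 2 sympathetic neuron and 1 Schwann cell and neural crest marker, and no skeletal muscle marker. The ratio of the brightest Efnb2 probe set minus the Schwann cell and neural crest median was -0.094, beside 0.067 for the arterial median. Neurons and neural crest cells can also make ephrin-B ligands and EphB receptors, and the part these cells have in the ratios of Ephb6, Ephb1, Efnb2 and Efnb3 was not tested.

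The remaining lists pointed toward the internal carotid pool or were mixed. For macrophage and leukocyte markers the median was -0.51, with 7 of 9 below 0, and summed signals of 14650 and 9657. All 5 measured erythroid markers were below 0, with a median of -0.51. For fibroblast and adventitial markers the median was -0.36, which was 0.085 after quantile normalization and 0.026 after loess. Epithelial markers had a median of -0.028, with 4 above and 4 below 0 and Epcam, an epithelial adhesion molecule gene, at 1.96.

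**Figure D3:**
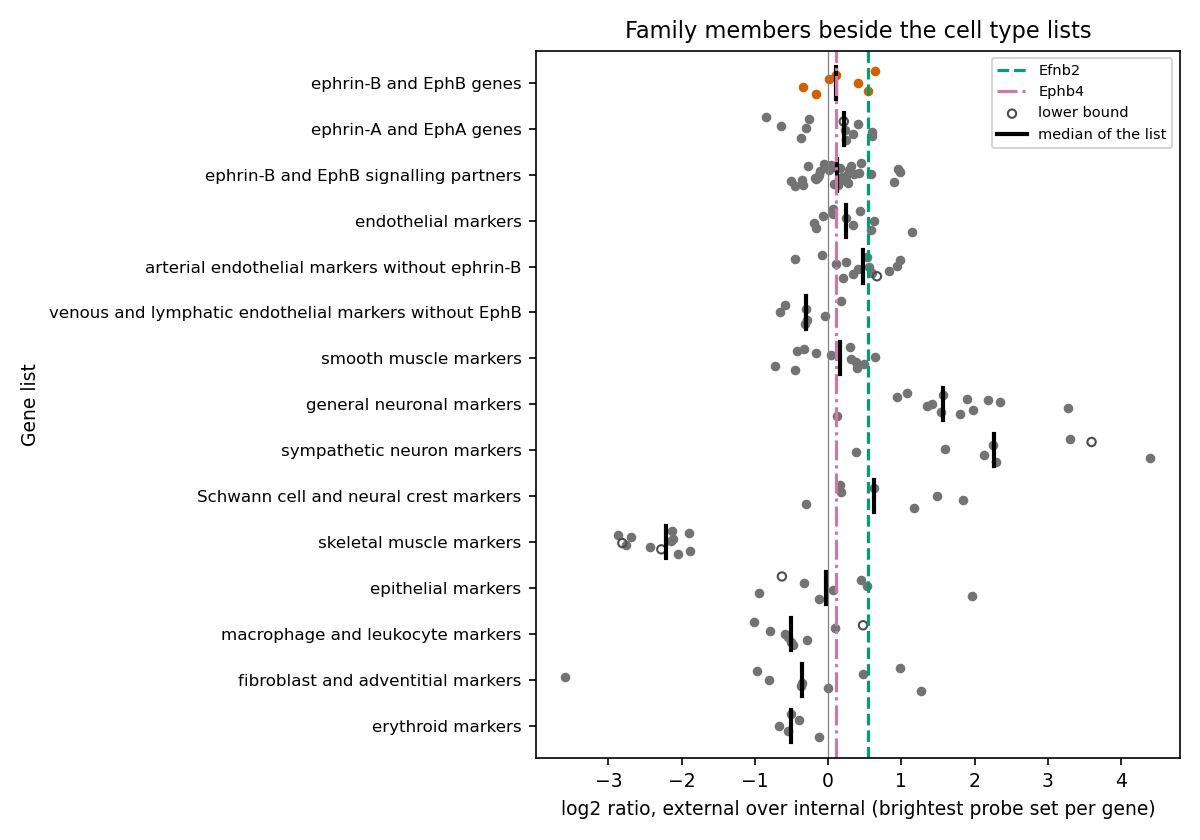
Log2 ratio, external over internal carotid signal, of each gene (points, brightest probe set; open circles are lower bounds) in the ephrin-B and EphB family, the ephrin-A and EphA family, the signalling partners and the cell type lists, with the median of each list as a black bar. Dashed and dash-dotted lines mark the brightest probe sets of Efnb2 (0.54) and Ephb4 (0.11). The Efnb2 line falls among the arterial markers (median 0.47). It also falls among the Schwann cell and neural crest (0.63), endothelial (0.24) and smooth muscle (0.17) markers. The second Efnb2 probe set, not drawn, was at 0.060. Both lines lie far from the neuronal (1.57) and skeletal muscle (-2.21) medians.

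The signalling partners are genes known to bind, cleave or act downstream of ephrin-B or EphB proteins. The 30 genes analysed were all measured on both arrays. None passed 2-fold in either direction, beside the 3.58% of all genes, and 19 were above and 11 below 0. Their median log2 ratio was 0.12, close to the 0.11 of the ligands and receptors, and -0.022 after centring. Ratios beyond the probe set SD were found for 7 genes toward the external and 4 toward the internal carotid pool, together 36.7% of the partners, near the 36.2% of all genes.

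Ptpn13, Sdc2 and Arhgef15 stood highest, each just short of 2-fold. Ptpn13, a phosphatase that binds ephrin-B tails and ends reverse signalling, read 182.6 and 361.9, a log2 ratio of 0.99. Its other probe set pointed the opposite way, at 61.0 in the internal carotid pool and 23.6, under the floor, in the external, a bound of -0.22. Sdc2, a heparan sulphate proteoglycan that EphB2 phosphorylates in dendritic spines, read 397.3 and 771.1, a log2 ratio of 0.96. Further Sdc2 probe sets were at 1.05 (93.1 and 193.3) and at a bound of 1.48 (43.1 and 132.0), so 3 readings shared its sign, and Sdc2 passed 2-fold with the median over probe sets. Arhgef15, an endothelial and neuronal guanine nucleotide exchange factor that EphB2 regulates, read 103.1 and 191.6, a log2 ratio of 0.89, with 0.83 at a second probe set.

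The lowest partners were Dvl2, a Wnt adaptor that also binds ephrin-B, at -0.51 (110.6 and 77.6), Abl1, a tyrosine kinase downstream of EphB receptors, at -0.46 (1423.5 and 1038.1), and Fyn, a kinase of the Src family, at -0.36 (897.2 and 701.2). The call for Yes1, another Src family kinase named here after its values were seen, depended on the probe set. Its brightest by mean log2 signal read 85.0 and 115.9, a log2 ratio of 0.45. Another read 179.8 in the internal carotid pool and 46.2, under the floor, in the external, which is higher in the internal by at least 3.44-fold. Counted by probe set, 4 of 70 partner probe sets with a value were past 2-fold, beside 3.30% of all such probe sets. They were the 2 of Sdc2, that of Yes1 and 1 of Acp1, which encodes a phosphatase that joins EphB complexes and was likewise named after its values were seen.

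The ephrin-A ligands and EphA receptors, the other branch of the family, were looked at in the same way. Of 14 genes 12 had a ratio or bound, none past 2-fold, with a median of 0.22 beside the 0.11 of the B branch. The highest were Efna3 at 0.60, Efna5 at 0.59 and Epha5 at 0.40, and the lowest Epha8 at -0.85, Epha4 at -0.64 and Efna2 at -0.37. The other Efna3 probe set, which read 70.9 and 72.1, was at 0.024. A further Epha4 probe set read 135.0 in the internal carotid pool and was under the floor in the external, higher in the internal by at least 2.58-fold. The median of the A branch was -0.28 over the 4 members left with the floor at the 75th percentile. Whether the branches differ was not tested.

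Every ligand and receptor ratio moved by less than the probe set SD under each alternative that gave a value, with Efnb2 read at its bound for the median over probe sets. Many of these settings could not change a value. A floor leaves the ratio of a probe set above it as it is, and a gene with 1 probe set has no other summary. Efnb2 stayed between 0.40 and 0.54 apart from its bound of 0.27 with the median over probe sets, Ephb1 between 0.27 and 0.41 and Ephb6 between 0.43 and 0.64, all above 0. Signs turned for Efnb1 with the median over probe sets and for Ephb3 and Ephb4 after centring.

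**Figure D4:**
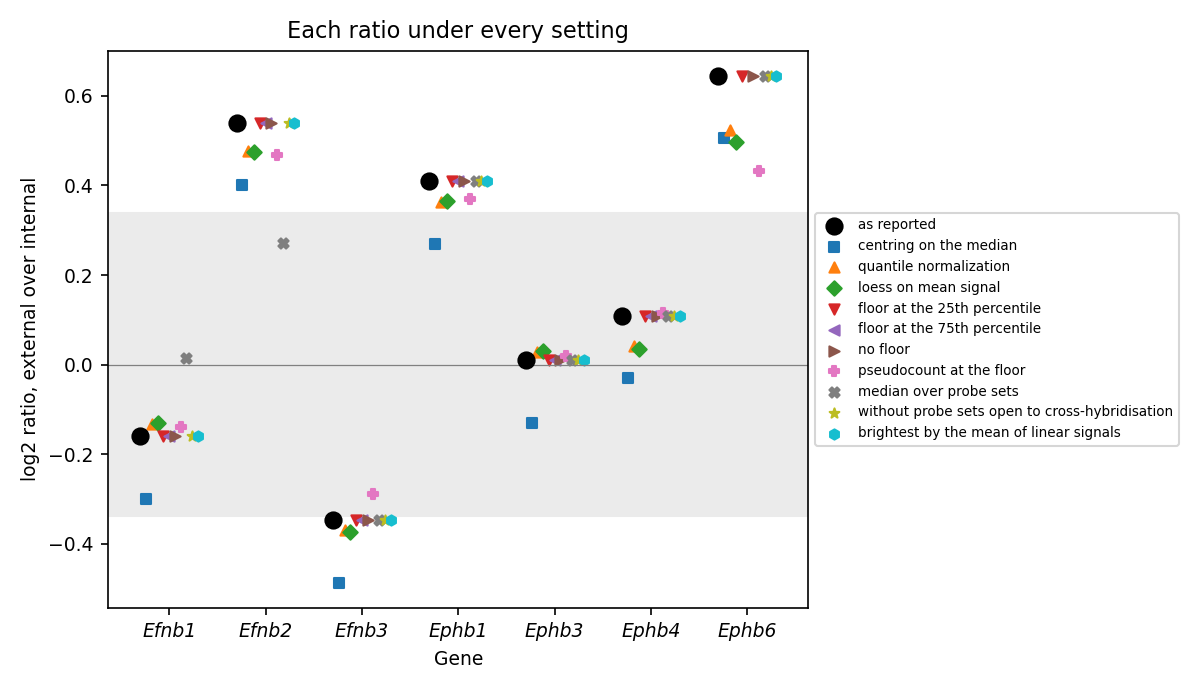
Log2 ratio, external over internal carotid signal, of the 7 measured ephrin-B and EphB genes as reported (large black circles) and under 10 alternative settings (small symbols; the Efnb2 value of 0.27 is a lower bound), with the probe set SD of 0.34 on either side of 0 shaded. Efnb2, Ephb1 and Ephb6 stay above 0 and Efnb3 below 0 in every setting that gave a value. Several settings leave a value unchanged by construction. Efnb1 turns sign with the median over probe sets and Ephb3 and Ephb4 after centring.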

How the data were processed

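Per the submitters' processing notes, the deposited signal intensities were made with GCOS 1.4 and MAS5. Per the labels' protocols, oligo-dT primed RNA was amplified in a pair of rounds and labelled with biotin, which favours 3' ends. Both arrays had a 2% trimmed mean intensity of 150 and were not rescaled; having 2 arrays limits the precision. Of 45037 non-control probe sets, 34945 had 1 gene, 932 several and 9160 none listed; symbols were updated by gene number through RefSeq names of GRCm38.p6 (34741 matched). Each gene was represented by the probe set with the highest mean log2 signal. Where 1 signal was under its floor, the other over that floor gave a lower bound on the log2 ratio, dropped if it pointed the opposite way. Called means past 2-fold.

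Members and lists were chosen with earlier results of these data known. All 8 genes are named; of partners and the A branch, genes past 2-fold or else the 3 highest and 3 lowest; of cell type lists at most the 2 highest and 2 lowest, plus Cdh5, Pecam1, Tubb3, Stmn2 and, after its values were seen, Gja5; and the 3 genes nearest in ratio to Efnb2 and Ephb4. One signalling partner is not reported here. The steps were tested on simulated data. Tables were handled with pandas 2.3.3 and numpy 2.4.6 in Python 3.11.15, loess (span 0.3) was run with statsmodels 0.14.6, and figures were drawn with matplotlib 3.10.9.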

Additional observations from a re-analysis of the deposited data

How the results depend on the processing

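Alternatives changed scaling, floor, pseudocount, probe set summary, threshold or counting unit, and 1, the brightest probe set by mean linear signal, was chosen after seeing the data. A value was taken as moved when it shifted by more than the probe set SD of 0.34, or a count by over 1.5 times. No ligand or receptor ratio moved, with Efnb2 at its bound for the median over probe sets. Where a value remained, floor changes left it as it was by construction, as did summary changes for genes with 1 probe set. At a 1.5-fold threshold 1 family member, 3 partners and 1808 of all genes were called, and at 3-fold 123 genes. Of all genes, 444 passed 2-fold (261 external, 183 internal), against 1235 (761 and 474) at the 25th percentile floor, 184 (85 and 99) at the 75th, 2578 (1490 and 1088) with no floor, 289 (161 external) with the pseudocount and 674 probe sets. The external share of calls, 58.8%, was 39.1% after centring, 48.1% after quantile normalization, 45.9% after loess and 46.2% at the 75th percentile floor. Among partners 1 gene was called with the median over probe sets (Sdc2), 1 with mean linear signal (Yes1) and 4 by probe set. List medians that moved were fibroblast (0.085 after quantile normalization, 0.026 after loess), erythroid (-0.12 after quantile normalization), sympathetic (1.84 with the pseudocount) and ephrin-A (-0.28 at the 75th percentile floor, which leaves fewer genes); for the others the cause was not tested. No paired analysis was possible because each vessel has 1 array. Dim probe sets such as that of Ephb6 lie near the floor and limit what its ratio can show.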
